A study of Mus musculus with 10 samples.

Results

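The BCL2 family is the group of proteins that controls the mitochondrial route to apoptosis, and its transcripts were followed across CD4 T cells with and without the regulatory T cell factor Foxp3, with and without IL-2, and with and without forced expression of the phosphodiesterase PDE3B. The family was taken as 9 named genes. Of these, 8 had at least 1 Affymetrix probe set annotated to that gene alone, out of 18194 such genes in the series, and all 8 were among the 11939 genes kept after dim probe sets were set aside. No probe set is annotated to Bax alone in the annotation used, so Bax was not analysed here. The 8 measured genes were Bcl2, Bcl2l1 and Mcl1, which encode survival proteins, Bcl2l11, Bbc3, Bid and Pmaip1, which encode BH3-only proteins, and Bak1, which encodes an effector. They were covered by 27 probe sets, 22 of which reached the median of at least 1 array, and each gene was read by its brightest probe set on average, with the others as a check.

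In the mitochondrial route to cell death the effectors BAX and BAK open the outer mitochondrial membrane and release cytochrome c, which starts the caspase cascade. The survival proteins BCL2, BCL-XL (from Bcl2l1) and MCL1 hold the effectors and the BH3-only proteins in check, and BH3-only proteins such as BIM (from Bcl2l11), PUMA (from Bbc3), BID and NOXA (from Pmaip1) are made or activated under stress and cytokine loss and overcome that restraint. In T cells, BCL2 is sustained by IL-7 and IL-2 signals, BIM removes cells when a response ends, and regulatory T cells depend on IL-2 and on MCL1 for survival. All of these proteins are also controlled after transcription, by phosphorylation, cleavage or turnover, which RNA arrays do not measure.

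The 10 groups held 1 array each, all from CD4 T cells of pooled lymph nodes and spleen of female mice 6 to 8 weeks old. GFPko cells were GFP-positive cells of Foxp3(gfpko/wt) females (C57BL/6 backcross 5 from 129/Sv). There GFP is made in place of Foxp3 from 1 of the X chromosomes, so that a sorted cell reads a mutant Foxp3 locus and the other cells of the same mouse can use the normal allele. GFPfoxp3 cells were GFP-positive cells of Foxp3(gfp/gfp) females (C57BL/6 backcross 8 to 10 from 129/Sv), whose GFP-Foxp3 fusion protein marks regulatory T cells. CD25pos and CD25neg cells were GFP-negative cells of the same gfp/gfp line with or without CD25, a chain of the receptor for IL-2. A second array of GFPko, GFPfoxp3 and CD25pos cells came from mice injected 4 times in 24 h with IL-2 (50 ng/g each time) and with cells isolated 30 min after the last dose. Whether untreated mice had vehicle injections is not stated for their arrays. The 3 vector groups were CD25+ CD4+ cells of C57BL/6 mice, cultured with antibodies to CD3 and CD28 and with IL-2 at 100 U/ml, and transduced with the retroviral vector MigR1 carrying PDE3B(H801A), PDE3B or no insert. They were transferred together with CD25- CD4+ B6.SJL cells carrying the same vector into TCRalpha-deficient recipients, and 3 weeks later the CD4+ cells that were GFP+, GITR+ and Ly5.1- were sorted, with GITR standing in for Foxp3.

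All values below are log2 levels as deposited, or differences between such levels, and a level below the median of its array (3.04 to 3.22) was treated as not above background. Foxp3, the targeted gene, followed the labels. It was at 9.40 and 8.33 in GFPko cells with and without IL-2, where the mutant locus is still transcribed, at 10.86 in both GFPfoxp3 arrays, at 2.85 and 3.90 in CD25pos cells and at 2.45 in CD25neg cells. In the vector arrays it was at 11.29 (PDE3B H801A), 11.26 (PDE3B) and 11.52 (empty vector). The probe set for Pde3b read 7.54 with the H801A vector, 6.91 with the PDE3B vector and 7.43 with the empty vector. Whether it covers the inserted sequence is not known here, so it does not check those labels. T cell markers were high on every array, with 6 of 7 measured and none below the array median. Actb, whose control probe sets lie at both ends of the transcript, read 5.87 to 6.38 higher at the 3′ end than at the 5′ end on the 3 vector arrays and 2.70 to 3.80 higher on the 7 arrays of directly sorted cells. With bulk RNA, fewer cells of a type and less RNA per cell cannot be told apart.

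**Figure D1:**
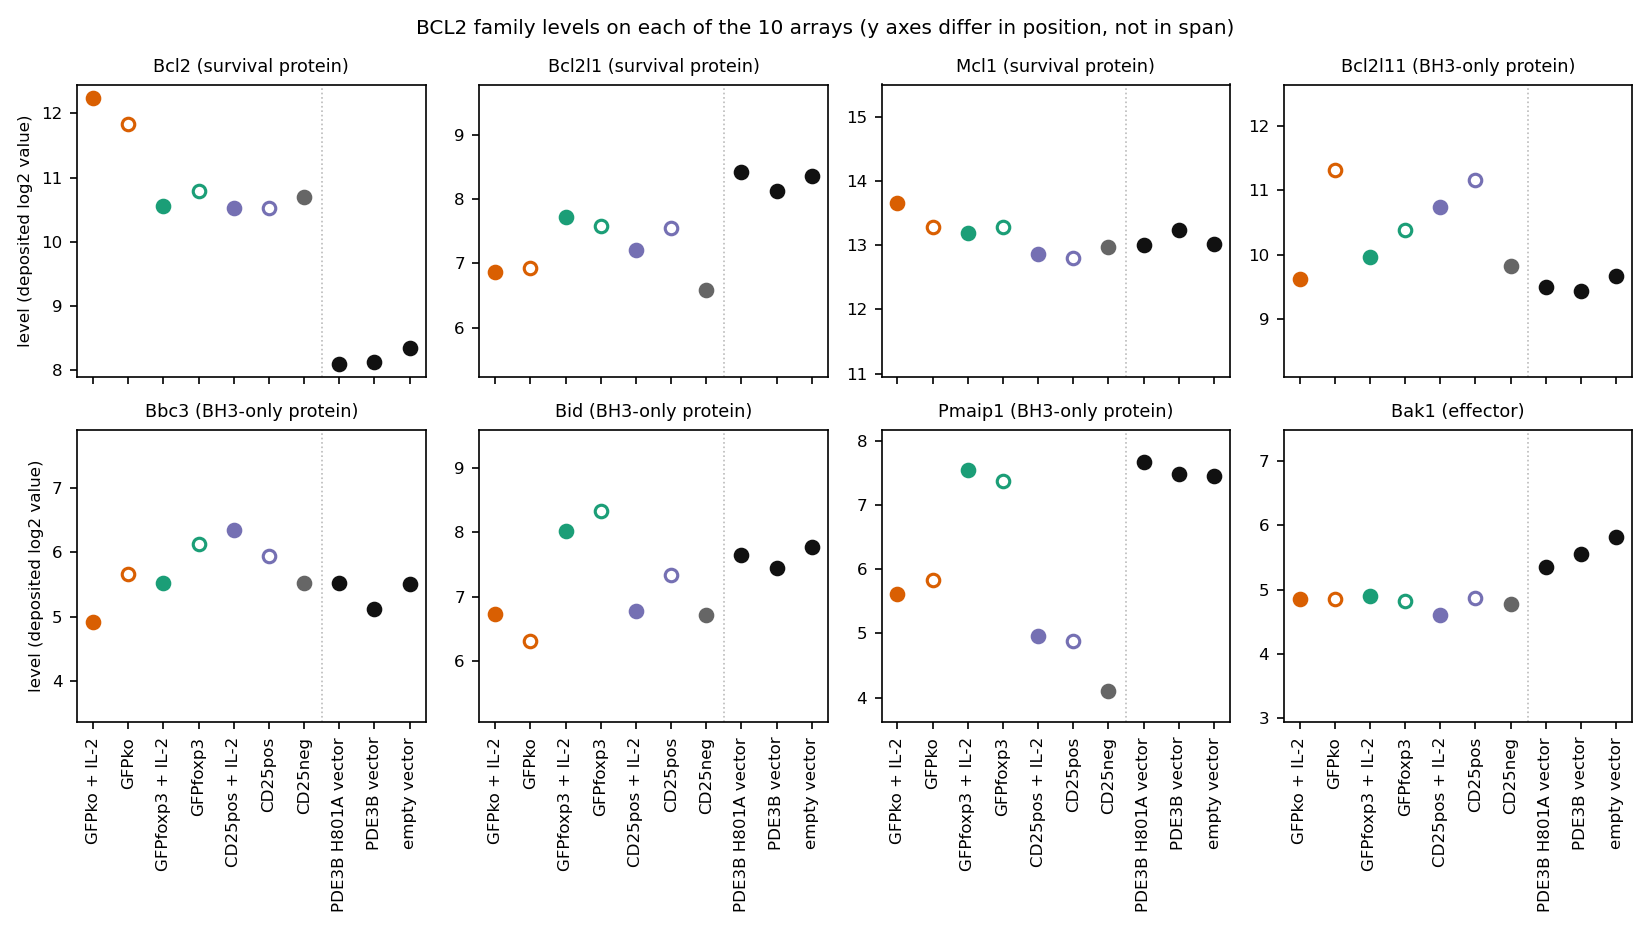
Level of each measured BCL2 family gene (y axis, deposited log2 value of its chosen probe set) on each of the 10 arrays (x axis, 1 point per array). Open circles are untreated GFPko, GFPfoxp3 and CD25pos cells, colours mark the populations and black points the vector arrays. Bcl2 reaches 11.84 and 12.24 in GFPko cells, Pmaip1 lies at 7.36 to 7.67 in the GFPfoxp3 and vector arrays, and Bak1 is flat on the 7 arrays left of the dotted line, with a highest level of 4.91.

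Population differences were tested with limma over 6 arrays, those of GFPko, GFPfoxp3 and CD25pos cells in both IL-2 states, with population and IL-2 as additive terms. The 2 residual degrees of freedom are the interaction of those factors, so a p-value measures how alike a difference was in both IL-2 states, not how it repeats between mice. A gene was called where the Benjamini-Hochberg adjusted p over the 11939 genes was under 0.05. GFPko and GFPfoxp3 cells differ in whether the Foxp3 locus gives the protein. Their mice also differ in backcross (5 against 8 to 10) and in genotype (gfpko/wt against gfp/gfp), and these arrays cannot tell such differences apart. The mice of GFPko and CD25pos cells differ in backcross and genotype too. Between GFPko and GFPfoxp3 cells 3 of the 8 family members were called, beside 7.47% of all genes. Bcl2 was higher in GFPko cells, and the BH3-only genes Bid and Pmaip1 were lower. The median difference of the 8 members was -0.27, against -0.01 over all genes. Between GFPfoxp3 and CD25pos cells 1 of 8 was called (Pmaip1, higher), beside 8.73% of all genes. Between GFPko and CD25pos cells 1 of 8 was called (Bcl2, higher), beside 3.48% of all genes. For IL-2 against no IL-2, 0 of 8 were called by limma, beside 0.235% of all genes. At an unadjusted p under 0.05 there was 1 of 8, Bcl2l11, beside 1261 of the 11939 genes. These comparisons share arrays, so they are not separate evidence.

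Leaving out 1 array leaves 1 residual degree of freedom and 1 array in its population. Member calls then changed, and calls over all genes became fewer in each comparison. The counts are given in the closing section. The differences themselves kept their sign without any 1 of the 6 arrays. For GFPko minus GFPfoxp3, Bcl2 was at 1.10 to 1.62, Bid at -2.09 to -1.23 and Pmaip1 at -1.90 to -1.57. For GFPfoxp3 minus CD25pos, Pmaip1 was at 2.41 to 2.66, and for GFPko minus CD25pos, Bcl2 was at 1.25 to 1.77. Centring each array on its own median put the median difference of all genes between GFPko and GFPfoxp3 cells at 0.14, against -0.01 as deposited, and the same 3 members were called (Bcl2 1.51, Bid -1.51, Pmaip1 -1.58).

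**Figure D2:**
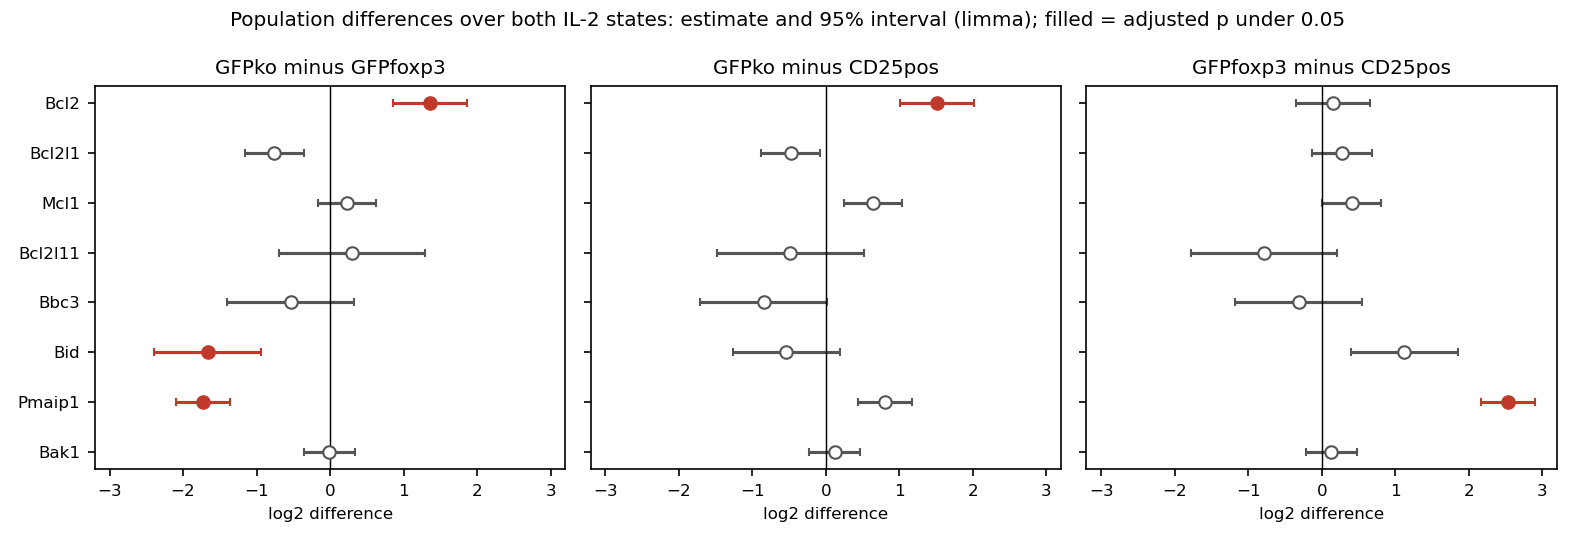
Difference between populations for each gene (x axis, log2; y axis, genes) as estimated by limma over both IL-2 states, with its 95% interval. Filled red points passed an adjusted p of 0.05. Bcl2 lies right of zero for GFPko against both other populations, and Pmaip1 lies far right for GFPfoxp3 minus CD25pos (2.53) and left for GFPko minus GFPfoxp3 (-1.73).

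Among the survival genes, Bcl2, the founding member of the family, set GFPko cells apart. Its level was 12.24 and 11.84 in GFPko cells with and without IL-2, against 10.56 and 10.80 in GFPfoxp3 cells. In CD25pos cells it was 10.53 on both arrays, and in CD25neg cells 10.69. Both GFPko arrays thus lay above all 5 other arrays of sorted cells, and those 5 lay within 0.27 of one another. The difference between GFPko and GFPfoxp3 cells was 1.36 ± 0.18 (SE; adjusted p = 0.0314 by limma, 2.57-fold), and that between GFPko and CD25pos cells was 1.51 ± 0.18 (adjusted p = 0.0384). The GFPfoxp3 minus CD25pos difference of Bcl2 was 0.15 with a 95% interval of -0.35 to 0.65, so a difference of either sign within that range was not resolved.

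All 5 Bcl2 probe sets were higher in GFPko than in GFPfoxp3 cells in both IL-2 states, with differences of 0.87 to 2.45 in single states and of 1.03 to 1.90 as fitted over both. The dimmest of them was close to or below the array median in GFPfoxp3 cells (3.05 with IL-2 and 2.76 without), so its size there is a poor guide. When every probe set was tested on its own, 3 of the 5 passed, with adjusted p of 0.0128, 0.0404 and 0.043 by limma, and the others had 0.0724 and 0.0788. For GFPko minus CD25pos tested in this way, the next brightest probe set passed (adjusted p = 0.0246 by limma). The chosen one (0.0542) and the others (0.0608, 0.0872 and 0.147) did not. The effect of IL-2 on Bcl2 was not alike between them. The chosen probe set gave 0.06 over the 3 populations, while the others gave 0.24, 0.61, 0.88 and 0.91, all with adjusted p of 0.234 or higher. In GFPko cells all 5 were higher after IL-2, by 0.41 to 1.68. In GFPfoxp3 cells 2 of the 5 were lower after IL-2 (-0.24 and -0.14) and 3 were higher (0.28 to 0.71), of which the 0.28 belongs to the dimmest probe set, at background there. In CD25pos cells the chosen probe set gave 0.0009 and the others 0.06, 0.66, 0.75 and 1.13. The 0.75 belongs to the dimmest.

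**Figure D3:**
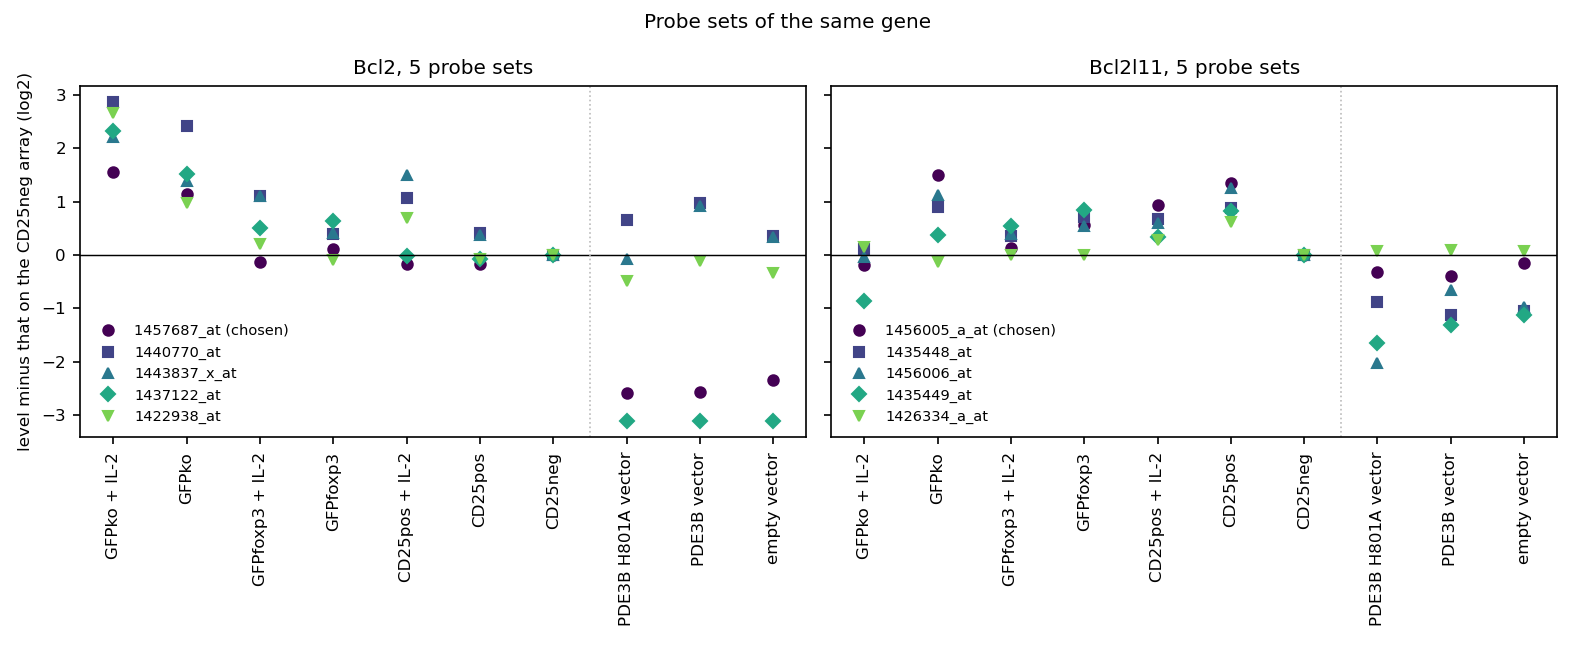
Level of each probe set of Bcl2 (left) and Bcl2l11 (right) on every array minus its level on the CD25neg array (y axis, log2; x axis, arrays). For Bcl2 all 5 probe sets are highest in the GFPko arrays relative to GFPfoxp3, and they split in the vector arrays, where 2 fall by over 2 and the others stay within 1 of CD25neg. For Bcl2l11 4 of 5 probe sets are lower in GFPko cells after IL-2 than before.

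Bcl2 was also the member with the largest gap between the vector arrays and the directly sorted ones at its chosen probe set, with 8.10 (H801A), 8.13 (PDE3B) and 8.35 (empty vector) against 10.53 to 12.24. A second probe set read 4.54 to 4.55 against 7.58 to 9.97. However, another read 8.84 to 9.45 in the vector arrays against 8.48 to 11.34, and a further one read 7.24 to 8.22 against 7.30 to 9.50, so the groups overlapped there. The Actb difference between transcript ends was also larger in the vector arrays, as given above, and its part in the Bcl2 gap was not tested. Over all genes 42.8% had no overlap between the 3 vector arrays and the 7 others, and among the members these were Bcl2, Bcl2l1 and Bak1.

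The promoter window of Bcl2 is shown because it is the survival gene that differed by population. The sequence is RefSeq's for GRCm38.p6, as the reference table gives it, and runs 5′ to 3′ on the gene's strand over chr1:106714241-106714540 (minus strand), from 250 bases before the annotated start to 50 after it. Capitals mark the only match among the motifs searched, a half-site of the cAMP response element (TGACG) whose first base is at -107 from the start.
Bcl2: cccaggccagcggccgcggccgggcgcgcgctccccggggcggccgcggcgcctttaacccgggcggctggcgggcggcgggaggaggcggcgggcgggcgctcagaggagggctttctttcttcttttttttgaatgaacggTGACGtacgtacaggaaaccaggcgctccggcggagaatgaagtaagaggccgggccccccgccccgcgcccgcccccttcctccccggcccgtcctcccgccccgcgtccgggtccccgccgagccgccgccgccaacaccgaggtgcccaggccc

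In all, 4 motifs were searched on both strands in the windows of 8 of the 9 named genes, Bax included and Pmaip1 not (13 windows in all): a forkhead motif GTAAACA, since Foxp3 is a forkhead protein, a STAT site TTCNNNGAA, since IL-2 acts through STAT5, the cAMP response element TGACGTCA, since PDE3B degrades cAMP, and its half-site TGACG, which also lies within the full element. The forkhead motif was in 2 of the 13 windows and in 3.65% of all 32851 windows of that length. The STAT site was in 0 of 13 and in 8.3% of all windows. The full cAMP response element was in 0 of 13 and in 1.79% of all windows, and the half-site in 3 of 13 (Bcl2, Mcl1 and Bbc3) and in 20.8% of all windows. A match describes the letters in this window and is not a bound site.

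Mcl1, which encodes a short-lived survival protein, varied least among the survival genes. Its level was 13.65 and 13.29 in GFPko cells with and without IL-2, 13.19 and 13.29 in GFPfoxp3 cells, 12.87 and 12.80 in CD25pos cells and 12.97 in CD25neg cells. The GFPko arrays lay above the CD25pos arrays by 0.64 ± 0.15 (SE; adjusted p = 0.114 by limma), which did not pass. The range over the 7 sorted arrays was 0.86. In the vector arrays Mcl1 read 13.00 (H801A), 13.24 (PDE3B) and 13.01 (empty vector), inside the range of the sorted arrays. At 2 of its other probe sets the vector arrays lay below every sorted array instead (10.55 to 10.65 against 11.09 to 11.89, and 9.01 to 9.11 against 9.27 to 10.08). Of the 6 genes listed for control of MCL1 protein turnover, 0 were called by limma in any of the 4 comparisons. At most 1 had an unadjusted p under 0.05 in each, beside 1261 (IL-2) to 3099 (GFPko minus GFPfoxp3) of all 11939 genes.

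Bcl2l1, the gene of BCL-XL, differed with the opposite sign to Bcl2 between GFPko cells and the other 2 populations of the fit. Its level was 6.86 and 6.94 in GFPko cells with and without IL-2, 7.73 and 7.59 in GFPfoxp3 cells, 7.21 and 7.55 in CD25pos cells and 6.59 in CD25neg cells. Both GFPko arrays were below all GFPfoxp3 and CD25pos arrays and above the CD25neg array. The GFPko minus GFPfoxp3 difference was -0.76 ± 0.15 (SE), with an adjusted p of 0.063 by limma, so it did not pass. The vector arrays read 8.43 (H801A), 8.13 (PDE3B) and 8.36 (empty vector), above all sorted arrays. The other 3 probe sets of Bcl2l1 lay below every array's median, so that a single probe set carries these values.

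Among the BH3-only genes, Pmaip1, which encodes NOXA, the partner that neutralises MCL1, spread most, over 3.44 across the 7 sorted arrays. Its level was 5.62 and 5.82 in GFPko cells with and without IL-2, 7.55 and 7.36 in GFPfoxp3 cells, 4.96 and 4.89 in CD25pos cells and 4.11 in CD25neg cells. The populations kept one order in both IL-2 states, with GFPfoxp3 highest, GFPko between and CD25pos lowest. GFPko cells were lower than GFPfoxp3 cells by 3.32-fold (-1.73 ± 0.13 on the log2 scale; adjusted p = 0.0118 by limma), and GFPfoxp3 cells were higher than CD25pos cells by 5.79-fold (2.53 ± 0.13; adjusted p = 0.00533). The GFPko minus CD25pos difference, 0.80 ± 0.13, did not pass (adjusted p = 0.0658). In the vector arrays Pmaip1 read 7.67 (H801A), 7.48 (PDE3B) and 7.44 (empty vector), close to the GFPfoxp3 arrays. It has 1 probe set, so no second reading was available as a check.

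Bid encodes the BH3-only protein that caspase-8 cleaves, which links death receptors to mitochondria. Its level was 6.73 and 6.30 in GFPko cells with and without IL-2, against 8.02 and 8.33 in GFPfoxp3 cells. CD25pos cells read 6.78 and 7.34, and CD25neg cells 6.71. GFPfoxp3 cells thus stood above all other sorted arrays, while GFPko, CD25pos and CD25neg arrays overlapped. The GFPko minus GFPfoxp3 difference was -1.66 ± 0.27 (SE; adjusted p = 0.044 by limma), and it no longer passed after quantile normalization (adjusted p = 0.0587), with no filter on dim probe sets (0.121), as the mean of all probe sets (-0.64, adjusted p = 0.0825) or when each probe set was tested on its own (0.0537). The GFPfoxp3 minus CD25pos difference was 1.12 ± 0.27 (adjusted p = 0.0886), which did not pass. The vector arrays read 7.65 (H801A), 7.45 (PDE3B) and 7.77 (empty vector), between the GFPfoxp3 arrays and the rest. The 2 other probe sets of Bid were dim, at 2.21 to 4.09, and one of them gave a difference of -0.20 between GFPko and GFPfoxp3 cells.

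Bcl2l11, the gene of BIM, was lower after IL-2 in each population, by most in GFPko cells. Its level was 9.63 with IL-2 and 11.31 without in GFPko cells, 9.96 and 10.38 in GFPfoxp3 cells and 10.75 and 11.16 in CD25pos cells, and it was 9.82 in CD25neg cells. After IL-2 it was lower by 1.68 in GFPko cells and by 0.42 in both others. The fitted IL-2 difference was -0.84 ± 0.30 (SE; adjusted p = 0.470 by limma). At the chosen probe sets the difference in GFPko cells was the only member difference of at least 2-fold with IL-2. In that pair of arrays 4.92% of all genes differed that much. In GFPfoxp3 and CD25pos cells 0 of 8 members differed 2-fold with IL-2 at the chosen probe sets, beside 1.95% and 1.35% of all genes. Other probe sets of Bcl2 did pass 2-fold, with 1.13 in CD25pos cells and, at the dimmest, 1.68 in GFPko cells. These pairs hold 1 array on each side and have no test.

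In GFPko cells after IL-2, 4 of the 5 Bcl2l11 probe sets were lower, by 1.68, 1.22, 1.16 and 0.79, and the remaining one was near background (2.77 with IL-2, 2.49 without). The same 4 were also lower after IL-2 in GFPfoxp3 cells, by 0.14 to 0.42, and in CD25pos cells, by 0.21 to 0.65. At the chosen probe set GFPko minus GFPfoxp3 was -0.33 with IL-2 and 0.93 without. At the next brightest it was -0.25 with IL-2 and 0.19 without, and at another it was negative in both states, at -1.40 with IL-2 and -0.47 without. On the vector arrays the chosen probe set read 9.49 (H801A), 9.43 (PDE3B) and 9.67 (empty vector), at the lower end of the sorted arrays, and the other probe sets above background lay below the sorted arrays. The Actb difference between transcript ends was smaller on the IL-2 array than on the untreated array of each population (2.76 against 3.69 in GFPko cells, 2.70 against 3.07 in GFPfoxp3 cells and 2.86 against 3.80 in CD25pos cells), and its part in the Bcl2l11 difference was not tested. The myeloid gene Lyz2 also differed in the GFPko pair, at 5.705 with IL-2 and 3.36 without, against 3.25 to 3.55 on the other sorted arrays, and its part was not tested either.

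**Figure D4:**
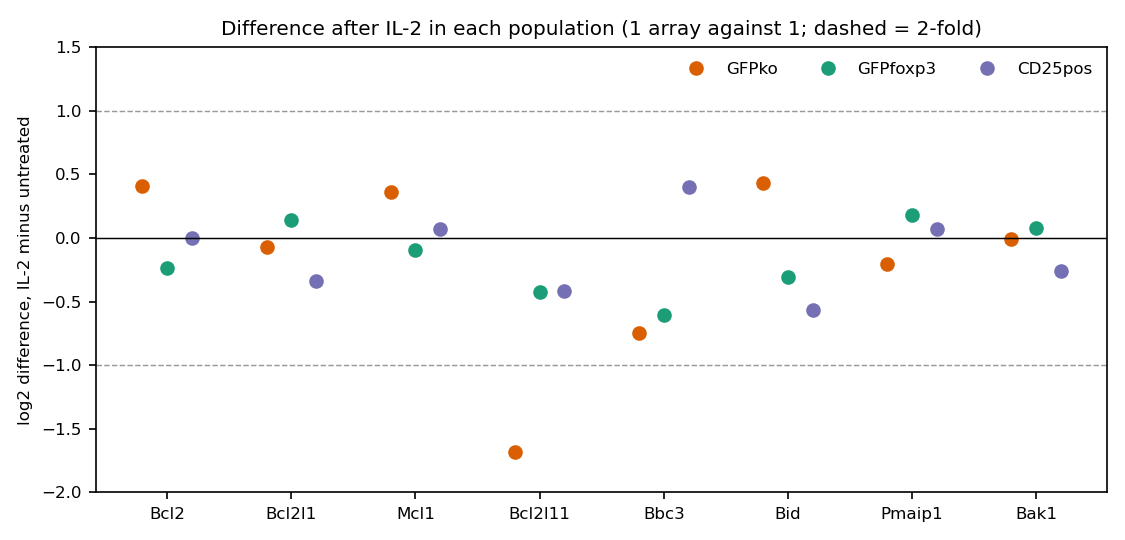
Difference between the IL-2 array and the untreated array of each population (y axis, log2; x axis, genes; 1 point per population, colours as in the legend, dashed lines at 2-fold). The Bcl2l11 point of GFPko cells, at -1.68, is the only one outside the dashed lines, and for Bcl2l11 all 3 points are below zero.

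Bbc3 encodes PUMA, a BH3-only protein induced by p53 and by FOXO3. Its level was 4.92 and 5.67 in GFPko cells with and without IL-2, 5.53 and 6.13 in GFPfoxp3 cells, 6.34 and 5.94 in CD25pos cells and 5.52 in CD25neg cells. After IL-2 it was lower by 0.75 in GFPko and by 0.60 in GFPfoxp3 cells and higher by 0.40 in CD25pos cells. No comparison of Bbc3 passed; the nearest was GFPko minus CD25pos, with -0.85 ± 0.32 (SE; adjusted p = 0.252 by limma).

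The BH3-only windows shown are those that hold the forkhead motif, in capitals. The Bcl2l11 window covers chr2:128125788-128126087 (plus strand), and its motif has its first base at -227 from the annotated start. The Bbc3 window covers chr7:16310011-16310310 (plus strand), is the second of 3 annotated starts, and holds the motif on the opposite strand (read here as TGTTTAC), with its first base at -167. Bcl2l11 and Bbc3 were not called between GFPko and GFPfoxp3 cells.
Bcl2l11: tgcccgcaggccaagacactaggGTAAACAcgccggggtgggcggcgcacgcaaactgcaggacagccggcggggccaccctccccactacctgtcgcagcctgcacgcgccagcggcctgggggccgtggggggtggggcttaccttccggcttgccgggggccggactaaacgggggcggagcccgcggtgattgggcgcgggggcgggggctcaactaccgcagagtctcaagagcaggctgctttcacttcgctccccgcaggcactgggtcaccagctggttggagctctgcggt
Bbc3: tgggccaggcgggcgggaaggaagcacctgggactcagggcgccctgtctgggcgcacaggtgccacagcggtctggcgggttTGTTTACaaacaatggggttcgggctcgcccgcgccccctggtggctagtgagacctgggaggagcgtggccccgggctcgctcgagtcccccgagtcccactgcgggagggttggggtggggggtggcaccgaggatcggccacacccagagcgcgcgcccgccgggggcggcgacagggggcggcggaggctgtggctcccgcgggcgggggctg

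Bak1, the measured effector, was the flattest member. Its level was 4.85 and 4.86 in GFPko cells with and without IL-2, 4.91 and 4.83 in GFPfoxp3 cells, 4.604 and 4.87 in CD25pos cells and 4.77 in CD25neg cells. The GFPko minus GFPfoxp3 difference was -0.01, with a 95% interval of -0.36 to 0.34 by limma. The vector arrays were higher, at 5.34 (H801A), 5.56 (PDE3B) and 5.82 (empty vector).

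Against CD25neg cells, single arrays were compared without a test, and members were counted where they differed at least 2-fold. In GFPko cells 3 of 8 were higher, Pmaip1 (by 1.71), Bcl2l11 (by 1.49) and Bcl2 (by 1.14), beside 6.73% of all genes. The other Bcl2l11 probe sets, from bright to dim, gave 0.90, 1.12, 0.37 and -0.13 there. In GFPfoxp3 cells 2 of 8 were higher, Pmaip1 (by 3.25) and Bid (by 1.63), beside 10.9% of all genes, with Bcl2l1 just short of 2-fold at 1.00 after rounding. In CD25pos cells 1 of 8 was higher, Bcl2l11 (by 1.35), beside 7.25% of all genes, and Bcl2l1 was higher by 0.96. All 3 pairs use the same CD25neg array. None of the 8 members was lower by 2-fold in any of them.

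Among the vector arrays no member differed 2-fold. PDE3B minus empty vector gave 0 of 8, beside 5.44% of all genes, PDE3B(H801A) minus empty vector 0 of 8, beside 2.29%, and PDE3B(H801A) minus PDE3B 0 of 8, beside 3.04%. H801A carries an exchange at 1 residue of PDE3B. The largest member difference at the chosen probe sets was Bak1 with H801A against the empty vector, -0.47, followed by Bbc3 with H801A against PDE3B, 0.40, and Bbc3 with PDE3B against the empty vector, -0.39. At other probe sets of Bcl2, PDE3B against the empty vector read 0.61 and 0.58 where the chosen one read -0.22. One dim Bcl2l11 probe set read 1.37 lower with H801A than with PDE3B (3.63 against 5.00), while the chosen one read 0.06 higher.

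Several marker lists moved with the population differences. Of 7 cell cycle genes tested, 6 were lower in GFPko than in GFPfoxp3 cells, and their summed level was 49.87 and 34.13 in GFPko cells with and without IL-2, against 61.84 and 50.50 in GFPfoxp3 cells, 58.32 and 45.20 in CD25pos cells and 25.33 in CD25neg cells. Of 5 B cell genes tested, 3 were lower in GFPko than in GFPfoxp3 cells (Cd74, Ighm and Cd79b). The summed level of the 7 measured B cell genes was 30.64 to 31.31 in GFPko cells, 38.78 to 39.26 in GFPfoxp3 cells and 33.26 to 33.72 in CD25pos cells, with Cd79a and Pax5 below the median on all 10 arrays. Of 6 genes of CD8 and NK cells tested, 4 (Klrd1, Eomes, Nkg7 and Klrk1) were lower in both GFP-positive populations than in CD25pos cells. Cd8a and Cd8b1 were not called, and Cd8a read 3.13 to 3.21 on these arrays. Cd8b1 read 5.53 and 4.86 in GFPko cells with and without IL-2, 4.41 and 4.26 in GFPfoxp3 cells and 4.48 and 4.47 in CD25pos cells. Sums over 7 genes were 25.84 to 28.66 in GFPko cells, 25.83 to 27.14 in GFPfoxp3 cells and 42.91 to 43.32 in CD25pos cells. Ncr1 was below the median on every array. Of 5 regulatory T cell genes, 3 were lower in GFPko than in GFPfoxp3 cells and 5 were higher in GFPfoxp3 than in CD25pos cells. Myeloid genes were dim, with 2 to 4 of 6 below the array median on every array and 0 called by limma. At most 1 of 4 plasma cell genes (Prdm1, -2.56 for GFPko minus GFPfoxp3) was called, and both measured erythroid genes were below the median on all arrays. The part of these shifts in the family's differences was not tested.

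The wider apoptosis genes were read from 10 lists. Of all 11939 genes, 3099 had an unadjusted p under 0.05 by limma for GFPko minus GFPfoxp3 and 3060 for GFPfoxp3 minus CD25pos. For GFPko minus CD25pos there were 2421, and for IL-2 1261. Of 10 other BCL2 family genes, 1 was called between GFPko and GFPfoxp3 cells, the BH3-only gene Bik, which was higher in GFPko cells by 1.33 ± 0.17 (SE; adjusted p = 0.0289 by limma), and 0 were called in the 3 other comparisons, where at most 2 had an unadjusted p under 0.05. Of 11 apoptosome and caspase genes, 1 was called, Dffb, which encodes a nuclease that cuts DNA in dying cells (-0.58 for GFPfoxp3 minus CD25pos), and 0 in the other comparisons, where at most 4 had an unadjusted p under 0.05. Of 6 mitochondrial pore partners, 1 was called in the same comparison, Ppif, the gene of cyclophilin D (-1.09).

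Of 6 inhibitor of apoptosis genes, Birc5 was called in 3 comparisons. Birc5 encodes survivin, which also acts in cell division. It read 7.29 and 5.51 in GFPko cells with and without IL-2, against 9.10 and 7.44 in GFPfoxp3 cells, 8.82 and 7.14 in CD25pos cells and 4.02 in CD25neg cells. It was lower in GFPko than in GFPfoxp3 cells by 1.87 ± 0.10 (SE; adjusted p = 0.00742 by limma) and higher after IL-2 by 1.70 ± 0.08 (adjusted p = 0.0394). Of the 7 cell cycle genes, 6 were also lower in GFPko than in GFPfoxp3 cells, and 1 (Mki67) was called higher after IL-2. Birc2 and Birc3, whose products restrain death receptor signalling, were higher in GFPfoxp3 than in CD25pos cells, by 0.61 and 0.68.

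Of 8 death receptor genes, 2 were called between GFPfoxp3 and CD25pos cells. Fasl, the ligand of the death receptor Fas, read 5.58 and 4.89 in GFPfoxp3 cells with and without IL-2, against 9.54 and 9.44 in CD25pos cells, and was lower by 4.26 ± 0.23 (SE; adjusted p = 0.00549 by limma). It was also lower in GFPko than in CD25pos cells, by 3.09. Fasl is a gene of cytotoxic cells too. In the same comparisons 4 of the 6 CD8 and NK genes tested were lower, while Cd8a and Cd8b1 were not called. The part of that shift in the Fasl difference was not tested. Tnfsf10, the gene of the death ligand TRAIL, was higher in GFPfoxp3 than in CD25pos cells by 0.94.

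Of 12 p53 target genes, 2 were called lower in GFPko than in GFPfoxp3 cells, Gadd45a and Ccng1 (by 1.01 and 0.68), beside 7.47% of all genes called. Between GFPfoxp3 and CD25pos cells 1 of 12 was called, Gadd45a (higher by 1.55), beside 8.73% of all genes. Pmaip1, itself a p53 target, went in the same direction as Gadd45a in both comparisons, and Bbc3, another p53 target, was not called in either. The part of p53 in these differences was not tested. Of 12 IL-2 receptor and STAT5 response genes, 4 were higher in GFPfoxp3 than in CD25pos cells (Il2ra, Pim1, Cish and Stat5b, by 0.73 to 3.43), 1 was lower in GFPko than in GFPfoxp3 cells (Pim1, -1.11) and 1 was higher after IL-2 (Cish, 1.07 ± 0.08, SE; adjusted p = 0.0473 by limma). Of 8 genes of the IL-7 receptor and FOXO axis, 1 was called, S1pr1, which guides exit from lymph nodes, higher in GFPko than in GFPfoxp3 cells by 1.11 and than in CD25pos cells by 1.16. Of 13 immediate early and stress genes, Fos was higher in GFPko than in GFPfoxp3 cells by 2.17, Jun, Dusp1 and Junb were higher in GFPfoxp3 than in CD25pos cells, and Fos, Jun and Junb were higher in GFPko than in CD25pos cells.

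For each member that spanned at least 1 log2 unit over the 7 sorted arrays, the most similar genes were taken by Pearson's r over those arrays among 3369 genes that spanned as much. These are descriptions over 7 arrays that share the same populations, with no test. Nearest to Bcl2 were 1700012B07Rik, Tnfrsf14 and St6galnac2 (r of 0.99 each), of which St6galnac2 read 7.15 and 5.95 in GFPko cells and 3.08 or less on the other sorted arrays. 1700012B07Rik (2.82 to 2.87) and Tnfrsf14 (2.13 to 2.16) lay below the array median on the other sorted arrays, so these likenesses rest on the 2 GFPko arrays. Tnfrsf14 was below the median on the untreated GFPko array too (2.80 against 3.11) and just above it with IL-2 (3.15 against 3.06). Nearest to Bcl2l1 were Ddc, Pdcd1lg2 and Alcam (0.97 to 0.99), and nearest to Bcl2l11 were Lax1, Dusp2 and Lpgat1 (0.93 to 0.94). Pmaip1 was most like Klc3, Anxa4 and Ncf1 (0.99 to 1.00), Bid most like Pglyrp1, S100a4 and Trim3 (0.98), and Bbc3 most like Chst2, Zmym4 and Cep170b (0.91). Mcl1 and Bak1 spanned less than 1 and were not compared.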

How the data were processed

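Sorted CD4 T cell RNA was amplified in 2 rounds and hybridised to Affymetrix mouse 430 2.0 arrays, per the labels' protocols. The deposited log2 values of 45101 probe sets were normalized together by the authors over the 10 arrays of separate experiments, per the series' design text. That they are log2 was read from their range (0.94 to 15.94). The sources used here do not give the background correction or probe summary. Probe sets with 1 gene in the platform annotation (34958; 34754 matched by Entrez ID to the GRCm38.p6 gene table) were kept where at least 1 array reached its own median.

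Population and IL-2 were modelled by lmFit and eBayes (limma 3.58.1, R 4.3.3; 6 arrays, 2 residual degrees of freedom, prior of 2.23 degrees of freedom and SD of 0.129), tested on simulated data first. The other 9 comparisons set 1 array against 1. With 1 array per group, the number of arrays limits the precision, and nothing measures the spread between animals. Members and lists were chosen with earlier results of these data known. Named genes were all members, up to 4 called genes of a list per comparison and the 3 nearest genes of a member. Promoter sequences are RefSeq's. Alternatives are given in the closing section.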

Additional observations from a re-analysis of the deposited data

Results flagged for a closer look

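The following differences had opposite signs in the groups compared, with 1 array on each side. None of these differences between groups was tested, and values are log2 at the chosen probe sets.

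Bcl2l11 gave the largest. GFPko minus GFPfoxp3 was -0.33 after IL-2 and 0.93 untreated, a gap of -1.26, and GFPko minus CD25pos was -1.12 after IL-2 and 0.15 untreated, a gap of -1.27. The signs were not opposite at each of its probe sets. Among those above background, at 1 GFPko minus GFPfoxp3 was negative in both states (-1.40 and -0.47), and at 2 GFPko minus CD25pos was negative in both (-0.64 and -0.13, and -1.18 and -0.45). Bbc3 was lower after IL-2 in GFPko (-0.75) and GFPfoxp3 cells (-0.60) and higher in CD25pos cells (0.40), gaps of -1.14 and -1.002, and its GFPfoxp3 minus CD25pos difference was -0.81 after IL-2 and 0.19 untreated, the same gap of -1.002. Bid was higher after IL-2 in GFPko cells (0.43) and lower in GFPfoxp3 (-0.31) and CD25pos cells (-0.56), gaps of 0.74 and 0.99.

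The IL-2 difference of Bcl2 in GFPko cells (0.41) exceeded that in GFPfoxp3 cells (-0.24) by 0.64, and the difference in GFPfoxp3 cells set against that in CD25pos cells (0.0009) gave -0.24. Other probe sets of Bcl2 put the GFPfoxp3 value above zero, as described for Bcl2 above. The CD25pos value was 0.06 to 1.13 at the probe sets besides the chosen one. For Mcl1 the same gaps were 0.46 and -0.17. Its IL-2 difference in GFPko cells was 0.36 at the chosen probe set but ranged from -0.34 to 0.27 at the others. For Bcl2l1 the gap was -0.21 between GFPko and GFPfoxp3 cells and 0.47 between GFPfoxp3 and CD25pos cells. For Pmaip1 it was -0.39 between GFPko and GFPfoxp3 cells and -0.28 between GFPko and CD25pos cells.

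Bak1 differed little. Its IL-2 gaps were -0.085 between GFPko and GFPfoxp3 cells and 0.34 between GFPfoxp3 and CD25pos cells. Set out by population, these are the same gaps of -0.085 for GFPko minus GFPfoxp3 and 0.34 for GFPfoxp3 minus CD25pos, with 0.26 for GFPko minus CD25pos.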

How the results depend on the processing

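With 1 array per group, no paired analysis was possible because the groups share only the replicate number 1. Over single members under limma, 347 of 416 values under the alternatives kept their direction and side of the threshold. The 347 include values that could not change by construction, described below, so this count does not measure stability. Of the others, 30 lost a call, 9 gained one and 30 changed sign. All sign changes were of differences called neither in the main setting nor under the alternative. For GFPko minus GFPfoxp3, Bcl2l11 (0.30) gave -0.12 with the mean of all probe sets, -0.0267 without cross-matching ones and -0.33 to 0.93 without 1 array, and Bak1 (-0.01) gave 0.0467 with quantile normalization, 0.14 with centring, 0.0097 with the mean of all probe sets and -0.12 to 0.10 without 1 array. Without 1 array, GFPfoxp3 minus CD25pos was -0.0684 to 0.37 for Bcl2, -0.85 to 0.23 for Bbc3 and -0.0184 to 0.28 for Bak1, and GFPko minus CD25pos was -1.12 to 0.15 for Bcl2l11 and -0.0279 to 0.27 for Bak1. IL-2 minus untreated was then -0.12 to 0.20 for Bcl2, -0.20 to 0.033 for Bcl2l1 (0.0027 with the mean of all probe sets), -0.0122 to 0.22 for Mcl1, -0.44 to 0.0594 for Bid, -0.0677 to 0.13 for Pmaip1 (-0.0254 with centring) and -0.13 to 0.0359 for Bak1. For GFPko minus GFPfoxp3, where 3 members were called, no filter on dim probe sets left 1, quantile normalization and the mean of all probe sets 2 each, and leaving out an array left 0 to 1. For GFPfoxp3 minus CD25pos (1 called), array median centring gave 2, the mean of all probe sets 2, and leaving out an array 0 to 3. For GFPko minus CD25pos (1 called), quantile normalization gave 0, centring 3, no filter 0, the mean of all probe sets 2, and leaving out an array 0 to 0. All 10 arrays in the fit gave the main values, but each added array was alone in its group, so this setting is no check. With no filter or with the intensity trend, the members' differences stayed as they were and only their p-values could move. The same held for a population difference when the array left out was from a population outside that comparison. In single pairs, the mean of all probe sets gave 0 for CD25pos minus CD25neg, 1 for GFPfoxp3 minus CD25neg and 0 for IL-2 in GFPko. Leaving out cross-matching probe sets gave 0 and 0 for the first and last of these. There Bcl2l11 carried the count and was then read by its next brightest probe set (0.87 and -0.79). Dimmer Bcl2l11 probe sets that do not cross-match did pass 2-fold, with 1.25 for CD25pos minus CD25neg and with -1.16 and -1.22 for IL-2 in GFPko. At a 1.5-fold threshold the counts were 4 (CD25pos minus CD25neg), 4 (GFPfoxp3 minus CD25neg), 2 (IL-2 in GFPko) and 1 (IL-2 in GFPfoxp3), and at a 3-fold threshold 0 for CD25pos minus CD25neg and 1 for GFPko minus CD25neg. The share of all genes was not taken at these thresholds or probe set choices, so these counts cannot be judged against it.

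Over all genes, calls between GFPko and GFPfoxp3 numbered 892 (27.1% higher), 1373 with centring (48.6% higher) and 382 with no filter, and 0 to 408 without 1 array. Between GFPfoxp3 and CD25pos they numbered 1042, and 609 with no filter and 0 to 836 without 1 array. Between GFPko and CD25pos they numbered 416 (35.8% higher), 858 with centring (51.6% higher), 33 with no filter and 0 without any 1 array. For IL-2 they numbered 28, 121 with centring, 13 with the mean of all probe sets, and 0 with quantile normalization, no filter, no cross-matching probe sets, the intensity trend or any 1 array left out. The causes were not tested. Levels under about 3 (the array medians) limit the dim probe sets of Bcl2, Bcl2l1, Bcl2l11, Bid and Bak1.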
